A study of Mus musculus with 3 samples.

Results

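CCAGG sites listed only in the pargyline-treated sample numbered 279055, a number that was 183593 when the treated counts were thinned to the mapped reads of the undifferentiated library and 72927 with a minimum of 20 reads. They were chosen by their reads: at least 10 reads at an autosomal CCAGG site with an unchanged motif in the alignment, and no entry at that position in the undifferentiated list. Of the 449651 autosomal CCAGG sites of that alignment class with at least 10 treated reads, 62.1% met the rule. Those listed in both samples numbered 170593, counted only at positions that read CCAGG in the GRCm38 reference. The 3 lists of the series held 4884718 rows, of which 2055181 were in the treated list. At 279043 of the chosen positions the GRCm38 reference reads CCAGG, and these sites are 7.69% of the 3626370 autosomal CCAGG motifs. They are called treated-only sites here, and the sites with at least 10 treated reads that also had an entry in the undifferentiated list are called shared sites. Since the reads in these samples set the choice, the number of treated-only sites and their depth are a description with no test.

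The undifferentiated sample was the mouse ESC line E14Tg2A in medium with leukemia inhibitory factor, on day 0. The treated sample came from this line on day 7 of differentiation, with leukemia inhibitory factor withdrawn and retinoic acid added, in 3 mM pargyline (PG), which inhibits the histone demethylase LSD1. The untreated day 7 sample had the same differentiation without PG, and its CCAGG counts repeat those of the undifferentiated list, so it gave no day 7 value for CCAGG and enters below through its CCGG counts alone. Compared with CCGG counts (below), those deposited counts followed the undifferentiated library more closely than the untreated one. A treated-only site is therefore not shown to be absent from the untreated day 7 cells. Day and treatment therefore cannot be told apart at CCAGG sites. There was 1 library per condition from 1 cell line, so no p-value is given, and the 95% Wilson intervals cover counting error at sites only, with PCR copies counted as reads. The samples have no expression values against which the labelled cell state could be checked.

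MethylRAD reads are short fragments cut out by FspEI, an enzyme that recognises certain modified cytosines, hydroxymethylcytosine included. It cuts at a fixed distance downstream of the modified cytosine. A site modified on both strands is cut on each side, which releases the short fragment. CCGG holds a CpG, the context in which most methylation of mammalian DNA lies and which is copied at replication by Dnmt1. The inner cytosine of CCAGG is followed by A, so a fragment cut because of CCAGG itself reports non-CpG modification, which the de novo enzymes Dnmt3a and Dnmt3b deposit in ESCs with help from Dnmt3l, and which is not maintained at replication. A fragment that holds CCAGG can also be released by a methylated CpG beside it. The opposite strand of CCAGG reads CCTGG, whose listed counts in the treated sample repeat those of the undifferentiated sample, so the treated-only sites are seen in the plus-strand orientation of the motif alone.

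The windows of 31 bases below are the length of an FspEI fragment centred on the motif. They are GRCm38 reference sequence of the plus strand, with CCAGG in capitals, and show the site with the most reads that lay outside UTRs in some of the genes described below, followed by a pair of the deepest sites of all. Those in Aspg, Esrrb, Rara and Prdm14 have no CpG in the window, those in Kdm1a and Dnmt3l have one, and the windows in Sfi1 and at the start of chromosome 9 are from regions with unusual depth. The Kdm1a site also lies in Luzp1 and the Dnmt3l site in Aire, so the exon or promoter named can be that of either gene.
Aspg intron, chr12:112108012-112108042: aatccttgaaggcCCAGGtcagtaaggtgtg
Esrrb intron, chr12:86391647-86391677: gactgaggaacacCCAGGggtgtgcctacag
Rara intron, chr11:98971455-98971485: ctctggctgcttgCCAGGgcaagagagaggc
Prdm14 exon, chr1:13124633-13124663: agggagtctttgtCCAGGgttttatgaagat
Kdm1a exon, chr4:136551884-136551914: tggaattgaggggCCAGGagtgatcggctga
Dnmt3l promoter, chr10:78042186-78042216: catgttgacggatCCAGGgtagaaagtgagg
Sfi1 intron, chr11:3170780-3170810: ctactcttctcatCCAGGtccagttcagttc
Gm26870 at the start of chromosome 9, chr9:3001507-3001537: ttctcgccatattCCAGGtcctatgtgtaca

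The treated reads at these sites were 44 in Aspg, 37 in Esrrb, 26 in Rara, 13 in Prdm14, 44 in Kdm1a, 35 in Dnmt3l, 274 in Sfi1 and 783 on chromosome 9. None had an undifferentiated entry. Such a site can still have had up to 4 undifferentiated reads, because the authors removed sites with fewer than 5. The first 7 of these windows occur once in the autosomes, and the window on chromosome 9 occurs 9 times.

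The treated-only sites were shallow. The median was 14 reads (quartiles 11 and 20), against 20 reads (14 and 31) in the treated sample at shared sites, which had a median of 12 reads in the undifferentiated sample. Under 20 reads were recorded at 73.9% of the treated-only sites, at least 50 at 2006 sites and at least 100 at 22 sites. In deposited RPM (the count scaled to the mapped reads of the library), the treated-only sites ranged from 0.149 to 11.6 with a median of 0.208. An unlisted site with 4 undifferentiated reads has 0.0785 RPM, so the shallowest treated-only site had at least 1.89 times the RPM that an absent entry allows. Just inside the limit, 38696 sites had 10 treated reads, and just outside it 46349 sites without an undifferentiated entry had 9. A further 18333 sites with at least 10 treated reads had an undifferentiated entry of exactly 5 reads. Together the treated-only sites held 4767936 reads, 7.09% of the mapped reads of the treated library.

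The counts could be traced to their library through CCGG motifs within 10 bp, which are read from the same fragments. Across 27186 such pairs with a treated CCAGG entry, the treated CCAGG count had a Spearman correlation of 0.973 with the treated CCGG count, 0.823 with the untreated and 0.604 with the undifferentiated CCGG count. Across 25583 pairs, the CCAGG count of the undifferentiated list had 0.985 with the undifferentiated, 0.661 with the untreated and 0.556 with the treated CCGG count. The treated and the undifferentiated CCAGG counts each followed the CCGG counts of their own library most closely. The untreated CCAGG counts, which repeat the undifferentiated ones, did not follow the untreated CCGG counts in this way. These correlations are across sites that share fragments, and sites are not replicates.

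Treated-only sites lay mostly in introns and between genes, and relative to the motifs available they were most frequent in exons. Introns held 48.0% (47.8 to 48.2%), distal intergenic regions 36.3% (36.1 to 36.5%), promoters 7.0% (6.91 to 7.10%), exons 5.80% (5.71 to 5.88%), 3′ UTRs 2.36% (2.3 to 2.41%), 5′ UTRs 0.108% (0.0960 to 0.120%) and the 300 bp downstream of genes 0.436% (0.413 to 0.462%). Promoters were taken as 1 kb upstream and downstream of each start site. Within the bounds of any annotated gene lay 63.0% of treated-only sites (62.8 to 63.2%), 66.3% of shared sites and 52.8% of all motifs.

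Per 100 motifs, the number of treated-only sites was 15.9 in exons (15.7 to 16.2), 14.3 in 5′ UTRs (12.9 to 15.9), 12.6 in 3′ UTRs (12.3 to 12.9), 9.23 in promoters (9.11 to 9.35), 8.61 in introns (8.57 to 8.66) and 5.99 in distal intergenic regions (5.96 to 6.03). Shared sites had the same leading class, with 16.9 per 100 motifs in exons, and fewer in distal intergenic regions, with 3.34. Exons were the class in which shared sites outnumbered treated-only sites. The plot of rates by location class shows both groups.

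**Figure D1:**
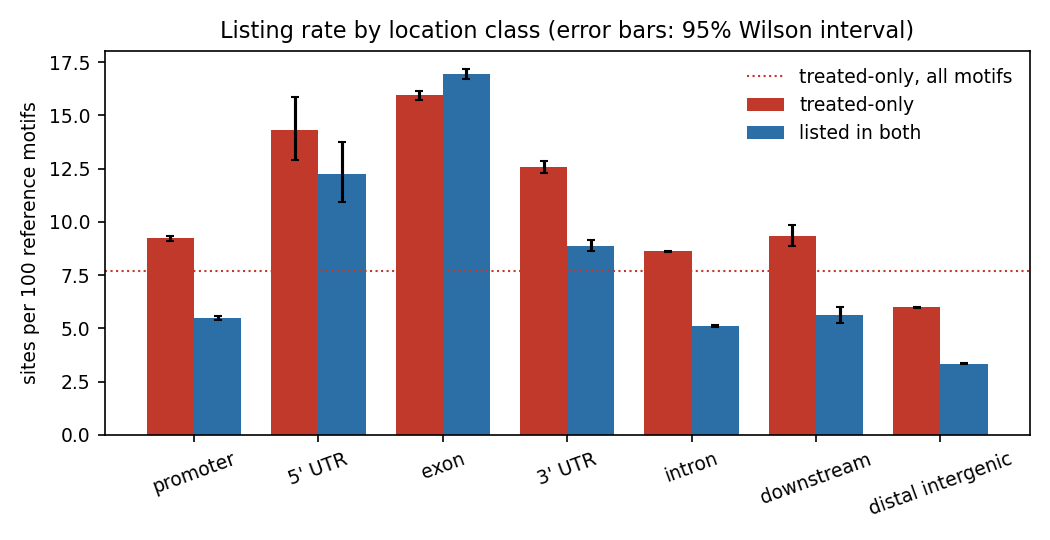
Sites per 100 reference CCAGG motifs in each location class (vertical axis), for treated-only sites (red bars) and sites also listed in the undifferentiated sample (blue bars), with 95% Wilson intervals for counting error. The dotted line is the treated-only rate over all motifs, 7.69. Treated-only sites range from 5.99 between genes to 15.9 in exons, and shared sites exceed them in exons alone.

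The order of the classes changed at matched base composition outside repeats. Among motifs outside soft-masked repeats with 55 to 60% GC in the 100 bp on each side, the treated-only rate was 23.3 per 100 motifs in exons (22.8 to 23.8), 22.8 in introns (22.6 to 23.1), 21 in distal intergenic regions (20.7 to 21.3) and 17.8 in promoters (17.4 to 18.3). At 50 to 55% GC the values were 19.4 in exons, 16.1 in introns, 14.2 in distal intergenic regions (14.1 to 14.4) and 14 in promoters (13.7 to 14.4). Promoters, which were above introns and distal intergenic regions over all motifs, were below the other 3 classes at 55 to 60% GC, and did not differ from distal intergenic regions beyond counting error at 50 to 55%. Introns came close to exons at 55 to 60% GC only. Reads varied little between classes, with a median of 14 reads in promoters, introns and distal intergenic regions and 15 in exons and both kinds of UTR.

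Motifs in soft-masked repeats were listed less often. Reads that map to several places had been removed, and their part in this was not tested. Treated-only sites were 4.23 per 100 motifs in repeats and 9.22 outside them. Repeats held 16.9% of treated-only sites, 12% of shared sites and 30.6% of all motifs.

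The rate of treated-only sites rose with GC content up to 60%. It was 0.372 per 100 motifs below 35% GC, 1.12 at 35 to 40%, 3.14 at 40 to 45%, 6.71 at 45 to 50%, 13.4 at 50 to 55% and 20.5 at 55 to 60%. It then was 19.2 at 60 to 65% and 7.50 at 65% or more. Shared sites went from 0.304 below 35% to 14 at 55 to 60% (13.9 to 14.1), 17.9 at 60 to 65% (17.6 to 18.2) and 6.77 above. Both groups fell at 65% or more, but the treated-only rate was highest at 55 to 60% and the shared rate at 60 to 65%. The median GC content around treated-only sites was 51.7%, against 52.7% at shared sites and 46.8% at all motifs.

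CCGG depth also varied between the libraries with GC content. At CCGG motifs that were present in every list and lay 41 to 100 bp from a CCAGG motif, the median log2 ratio of treated to undifferentiated RPM was -0.40 below 35% GC, -0.69 at 45 to 55%, -0.60 at 55 to 60%, -0.48 at 60 to 65% and -0.28 at 65% or more. The part of a GC difference between libraries in the CCAGG values was not tested.

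Classes of CpG content, taken from 500 bp windows, showed the fall at the CpG-rich end. Windows of high CpG content, the kind that CpG islands fall in, had 4.63 treated-only sites per 100 motifs (4.34 to 4.95), intermediate windows 10.4 (10.2 to 10.6) and low windows 7.64 (7.61 to 7.66). Because most of the genome is poor in CpG, 96.1% of treated-only sites were in low windows and 838 sites were in high ones. The median depth was 12 reads in high windows, 15 in intermediate and 14 in low windows.

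A CpG close to the motif was somewhat more frequent at treated-only sites than at all motifs, and much less frequent than at shared sites. Within 13 bp of the first base of the motif, 22.7% of treated-only sites had a CpG (22.6 to 22.9%), 57.8% of shared sites did (57.5 to 58.0%) and 18.9% of all motifs did (18.8 to 18.9%). CpGs that began 14 to 16 bp after that base lie inside a window of 31 bases but were not counted here. Among treated-only sites, 1.31% had a CpG beginning at position 14 and 1.02% at position 16. The rule bears on the difference from shared sites, because a CCAGG beside a methylated CpG can already be listed in the undifferentiated sample and is then left out. A total of 215563 treated-only sites (77.3%) had neither a CpG within 13 bp of the motif's first base nor a CCGG motif within 10 bp. Another 61561 (22.1%) had such a CpG without such a CCGG motif, and 1919 (0.688%) had the CCGG motif.

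The CpG profile around the motif separated the groups position by position. Between 2 and 9 bp before the motif, a CpG began at 1.24% of treated-only sites per position on average, at 3.50% of shared sites and at 1.06% of all motifs. Farther out, 15 to 20 bp before the motif, the values were 1.70%, 2.23% and 1.03%. On average per position, shared sites thus had more CpGs inside the fragment than outside it, and treated-only sites fewer. Around the expected fragment ends, 10 to 14 bp before the motif, treated-only sites had 1.13%, the lowest of these 3 stretches. The highest value after the motif was 1.93% at position 18, counted from 0 at the first base of the motif. The base just before the motif was C at 31.8% of treated-only sites, 28.2% of shared sites and 27.9% of all motifs, and A at 18.2%, 18.8% and 20.3%.

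**Figure D2:**
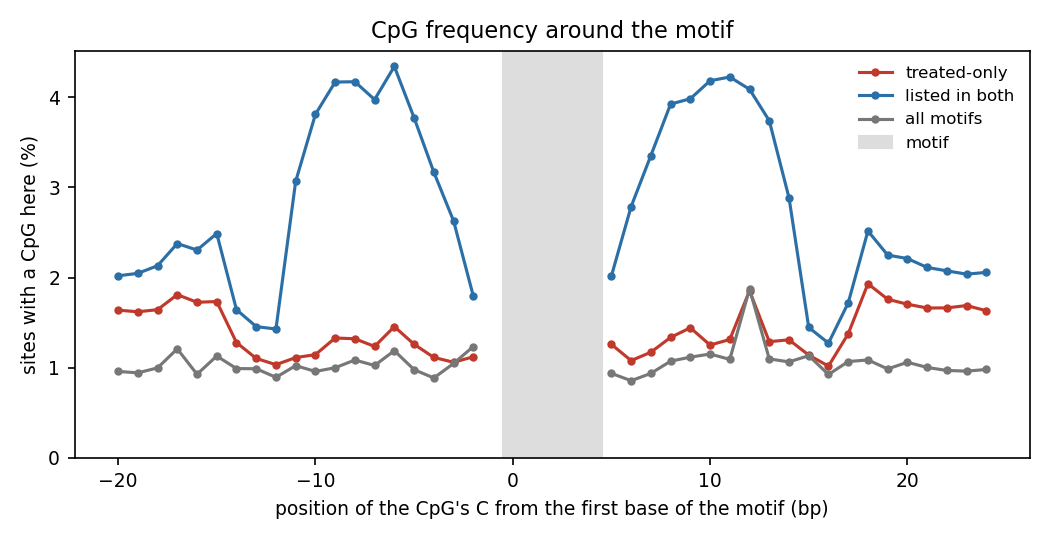
Percent of sites with a CpG beginning at each position (vertical axis), by distance in bp from the first base of the motif (horizontal axis), for treated-only sites (red), shared sites (blue) and all autosomal motifs (grey); the shaded band is the motif, where no CpG can begin. The blue curve peaks at 4.34% inside the fragment, while the red curve is lower inside than outside on average, with a peak of 1.85% inside at position 12 that all motifs also have (1.88%), and all motifs stay near 1% at most other positions.

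CpGs in the wider surroundings went with a higher rate even where none was in the fragment. Among motifs with no CpG within 17 bp, the treated-only rate was 1.50 per 100 motifs with no CpG in the 100 bp on each side (1.48 to 1.53), 4.62 with 1, 9.38 with 2, 14.5 with 3, 18.5 with 4 and 22.2 with 7 (21.6 to 22.9). With 10 or more it was 16.7 (15.7 to 17.7). At 55 to 60% GC the same rate was 9.55 with no CpG, 32.0 with 5 and 18.9 with 10 or more. At 45 to 50% GC it was 1.71 with no CpG and 13.3 with 5. The rise with CpG number was therefore seen within both of these GC ranges as well, up to 4 or 5 CpGs.

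**Figure D3:**
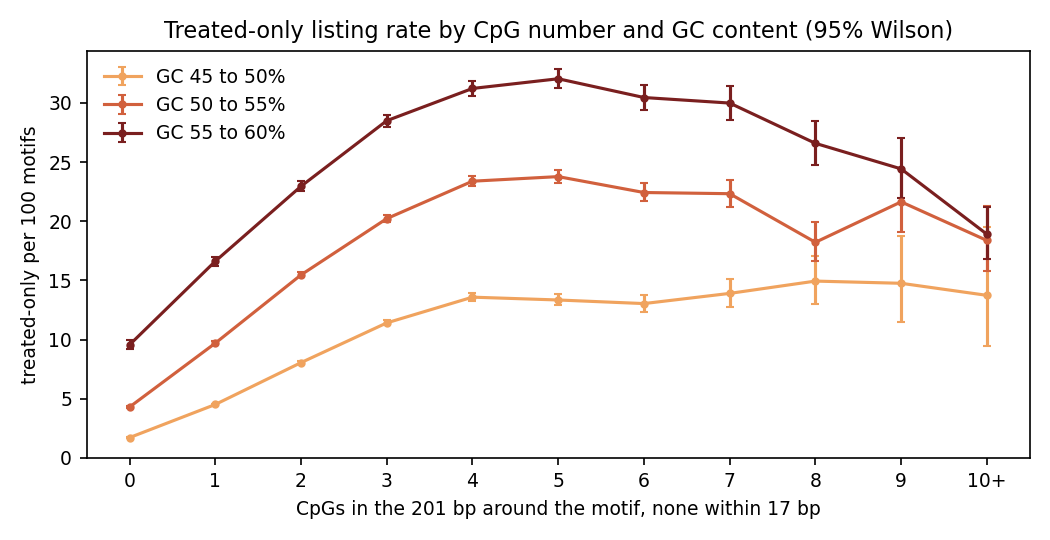
Treated-only sites per 100 CCAGG motifs (vertical axis) by the number of CpGs in the 100 bp on each side (horizontal axis), for motifs with no CpG within 17 bp, in 3 ranges of GC content; error bars are 95% Wilson intervals. The rate rises from 9.55 to 32.0 between 0 and 5 CpGs at 55 to 60% GC and falls back to 18.9 at 10 or more.

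A listed treated CCGG site was more often near a treated-only site than near CCAGG motifs as a whole. A listed treated CCGG site lay within 100 bp of 23.8% of treated-only sites (23.6 to 23.9%), 37.6% of shared sites (37.4 to 37.9%) and 9.95% of all motifs (9.92 to 9.98%). Within 1 kb the shares were 73.4%, 79% and 51.8%. These shares also depend on how often any CCGG motif, listed or not, lies nearby. Within 40 bp a CCGG motif was present at 8.85% of treated-only sites, 27.2% of shared sites and 6.21% of all motifs. The nearest listed CCGG site within 1 kb had a median of 25 treated reads at treated-only sites (quartiles 13 and 42), 27 at shared sites and 24 at all motifs. The shares differed between the groups, while these depths nearly coincided.

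The depth of a CCGG motif that cannot share a fragment with the CCAGG motif was measured at 41 to 100 bp, a count that the rule did not use. Of 302931 CCAGG motifs with such a neighbour, the treated-only share was 9.61% where the neighbour was not listed in the treated sample (9.43 to 9.79%). It was 16.1% at 5 to 9 treated CCGG reads, 19% at 10 to 19, 22.1% at 20 to 39, 25.4% at 40 to 79 and 27.1% at 80 or more (25.4 to 29.0%). The share thus rose at every step of depth.

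The same order was found with the counts of the other libraries. By undifferentiated CCGG reads, the treated-only share went from 10.9% where the neighbour was not listed to 25.5% at 80 or more reads, and by untreated CCGG reads from 10.4% to 25%. The neighbour was hence already read before differentiation in most cases. Among the 52456 treated-only sites with such a neighbour, the undifferentiated list held it for 79.3% (78.9 to 79.6%), the untreated list for 80.5% (80.2 to 80.8%) and the treated list for 81.9% (81.6 to 82.2%). Over all motifs with such a neighbour these shares were 67.2%, 67.4% and 67.4%. At 50 to 55% GC the treated-only share went from 12.6% where the neighbour was not listed to 29.1% at 40 to 79 treated reads, so the order was also found within this GC range.

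**Figure D4:**
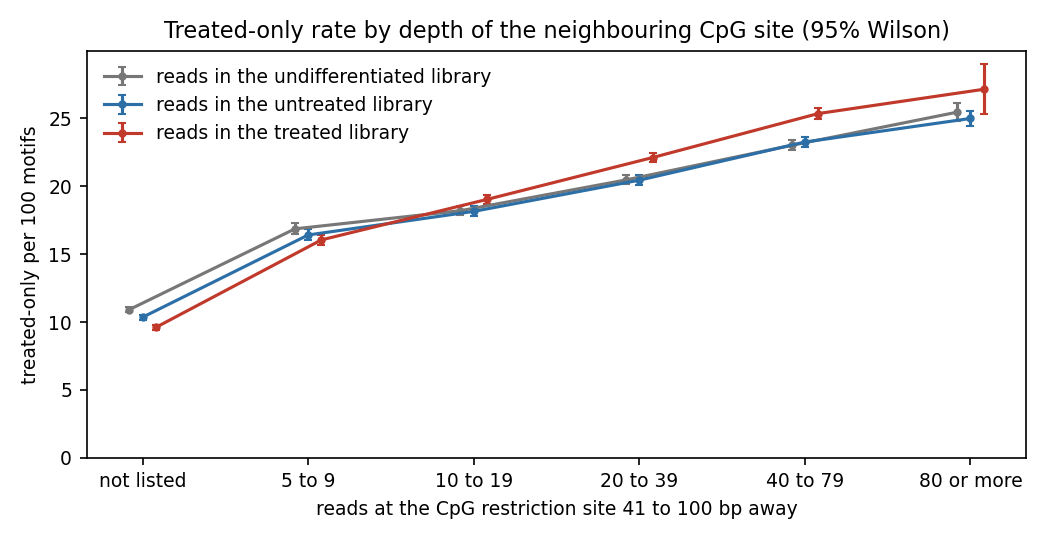
Treated-only sites per 100 CCAGG motifs (vertical axis) by the reads at the CCGG motif 41 to 100 bp away (horizontal axis), counted in the undifferentiated (grey), untreated (blue) and treated library (red), with 95% Wilson intervals. In all 3 libraries the rate rises with the depth of the neighbour, from 9.61 to 27.1 for the treated counts.

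Where every list held the neighbour, the median log2 ratio of treated to undifferentiated RPM was -0.58 for neighbours of treated-only sites (37048 pairs, quartiles -1.25 and 0.11), -0.61 for those of shared sites and -0.64 for all motifs. For untreated to undifferentiated RPM the medians were -0.23, -0.25 and -0.26, and for treated to untreated RPM, the contrast within day 7, they were -0.35, -0.35 and -0.37. The medians were thus below 0 in all 3 groups and close to each other. RPM depends on what else was read in each library, and with 1 library per condition these medians have no replicate check.

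For the 1919 treated-only sites that share fragments with a CCGG motif, the CCGG counts also gave an untreated day 7 value. The undifferentiated list held that CCGG site in 3.75% of cases (2.99 to 4.70%), the untreated list in 65% (62.8 to 67.1%) and the treated list in 91.1% (89.7 to 92.3%). At the 1236 pairs listed in both day 7 samples, the median was 11 untreated and 15.5 treated CCGG reads, with a median RPM ratio of 1.64. Because the CCGG and CCAGG counts come from the same fragments, the rule itself sets the low undifferentiated share and raises the treated share and reads, so these are a description, and neither their contrast with the untreated value nor the ratio is a comparison of conditions. Most of these CCGG sites were thus read on day 7 without pargyline too, and these sites are 0.688% of all treated-only sites.

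Along the chromosomes the treated-only rate ranged from 5.89 per 100 motifs on chromosome 3 to 9.60 on chromosome 11, and the median depth was 14 or 15 reads on every autosome. Chromosome 11 had the highest median GC content around its motifs (48.3%) and chromosome 3 the lowest (45.3%).

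Neighbouring treated-only sites were 2806 bp apart at the median (quartiles 739 and 8249 bp), and 48.4% (48.2 to 48.6%) had another within 1 kb, a share that was 39.1% after thinning and 24.7% with a minimum of 20 reads. Another lay within 32 bp, the span of a fragment, at 10.6% (10.4 to 10.7%), and such sites can be counted from the same reads. Beyond that span, a CCAGG motif 41 to 200 bp from a treated-only site was itself treated-only in 21.6% of pairs, beyond 200 and up to 1000 bp in 13.5%, at 1 to 5 kb in 12.6% and at 20 to 100 kb in 11.3%, against 7.69% of all motifs. These shares count pairs, so a motif with several treated-only sites in range counts more than once, whereas the 7.69% counts each motif once. Relative to that value, the excess had a short-range part within 200 bp and a part that changed little up to 100 kb. The part of regional GC content in this excess was not tested.

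A 300 bp stretch outside UTRs with many treated-only sites is shown because its sites come from a tandem repeat. It lies in a distal intergenic region of chromosome 2, 13147 bp from Chst1, a sulfotransferase gene, and CCAGG is in capitals where the site was treated-only.
Chromosome 2 stretch, chr2:92628397-92628696, GRCm38, plus strand: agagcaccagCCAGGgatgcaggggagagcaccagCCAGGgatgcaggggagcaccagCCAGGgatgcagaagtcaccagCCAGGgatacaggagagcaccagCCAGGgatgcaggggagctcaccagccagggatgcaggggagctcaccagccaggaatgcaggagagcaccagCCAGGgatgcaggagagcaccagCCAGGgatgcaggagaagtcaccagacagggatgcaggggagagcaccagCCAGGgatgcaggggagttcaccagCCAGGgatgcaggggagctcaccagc

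This stretch holds 11 CCAGG motifs, of which 9 were treated-only, and no CpG. Their treated reads, in order along the plus strand, were 31, 10, 18, 17, 14, 10, 13, 21 and 14. Of the other two motifs, the first had no treated entry and 5 undifferentiated reads, and the last had no entry in either list. Except for one wider gap, consecutive motifs lie closer together than the length of a fragment, so neighbouring sites are not independent counts.

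In 24002 windows of 100 kb with at least 50 motifs, the treated-only rate had a median of 5.31 per 100 motifs, with 1.03 at the 10th and 13.2 at the 90th percentile. The highest window, chr17:27300001-27400000, had 98 treated-only sites at 299 motifs (32.8 per 100) and no protein-coding gene, and the adjoining window with Grm4, a glutamate receptor gene, had 97 at 348 (27.9). A window on chromosome 11 at 120000001 to 120100000 with Aatk, Baiap2, Cep131, Ndufaf8 and Tepsin had 105 at 373 (28.2). At the other end, 1335 windows (5.56%) had no treated-only site, and their median GC content was 42.3%, against 45.1% over all windows. Across windows the rate and the GC content had a Spearman correlation of 0.807, a description over windows that share a library.

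The deepest treated-only sites were in a few places. Both sites with the most reads lay in soft-masked repeats near the start of chromosome 9, the 783 reads at 3001520 and 295 reads at 3006839, where the fragment windows occur 9 and 44 times in the autosomes. Of the 10 deepest sites, 4 lay in Sfi1 on chromosome 11, a gene for a centrosome protein, with 274, 234, 182 and 143 reads, and their windows occur once or, for the site with 182 reads, 2 times. A pair lay in C230088H06Rik on chromosome 4, with 192 and 158 reads at windows that occur 75 and 7 times. The site with 153 reads was 26081 bp from Vmn1r77, a vomeronasal receptor gene, and that with 149 reads was in 6820431F20Rik. Of the 10 windows, 3, all in Sfi1, had a single copy in the autosomes. The 99th percentile of reads over all treated-only sites was 47.

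Of 20807 protein-coding autosomal genes, 15874 (76.3%) held at least 1 treated-only site, so the presence of a site says little about a gene. Counting each motif once, gene bodies had 9.51 treated-only sites per 100 motifs. Over the 8494 genes with at least 50 motifs the median was 9.36, with 2.94 at the 10th and 18.1 at the 90th percentile, and 150 of them had none. Across these genes the rate had a Spearman correlation of 0.806 with the mean GC content around the motifs and 0.695 with the rate of shared sites. The orientation of the gene made little difference, with 9.40 per 100 motifs in plus-strand genes (9.34 to 9.47), where CCAGG is on the coding strand, and 9.55 in minus-strand genes (9.48 to 9.61).

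The largest numbers of treated-only sites were in very long genes. The gene model Gm20388 on chromosome 8 overlaps other genes including Gse1 and held 2181 sites at 12762 motifs, while Fgfr2, a fibroblast growth factor receptor gene, held 648 at 6048 over its annotated span of chr7:130162451-133123350. Camta1, a calmodulin-binding transcription factor gene, held 353, Rbfox3, a neuronal splicing factor gene, 248, Gse1 237, and Cdh13, a cadherin gene, 236. Prdm16, a zinc finger regulator gene, held 223, Wwox, a gene at a common fragile site, 208, Gm37240 206 and Cdh23, a cadherin gene of hair cells, 196. In these genes the rate ran from 9.16 per 100 motifs in Gm37240 to 21.7 in Prdm16, and the median depth was 14 or 15 reads in each.

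By rate, Aspg, an asparaginase gene on chromosome 12, led with 33 treated-only sites at 87 motifs, 37.9 per 100 (28.5 to 48.4). Gm28042 had 35.7, Rhpn1 34.0, Zbtb7a, a transcriptional repressor gene, 33.8, and Mroh2a 33.6. Arhgap45 had 32.7, Aatk, a kinase gene, 32.1 (53 of 165, 25.5 to 39.6), Ncln 32.1, Ptpn6, a phosphatase gene of blood cells, 32.1, and Carmil3 31.6. All 10 had a mean GC content between 51.8% in Mroh2a and 60.7% in Zbtb7a, against a median of 47.8% over genes. Their intervals overlap, so their order does not exceed counting error.

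The genes with the fewest had none. Skint6 had none at 419 motifs, which allows up to 0.908 per 100 by the Wilson interval, and Cphx3, Gm3383, Gm16867, Gm3005 and Gm2163 had none at 266 to 348 motifs. No shared site was in any of these 6 either. Skint6 and Cphx3 belong to gene families, and the part of reads that map to several places in these zeros was not tested. Obox3 had 0 treated-only and 3 shared sites at 211 motifs, Flg, the gene of the skin protein filaggrin, 0 and 5 at 190, Tll1, a metalloprotease gene, 0 and 4 at 156, and Pla2g4a, a phospholipase gene, 0 and 4 at 151. Tll1 and Pla2g4a had a mean GC content of 42.3% and 42.4%, while Flg had 67%.

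Of 13 gene lists, 6 had more treated-only sites per 100 motifs than the 9.51 of all protein-coding gene bodies. The plot of gene lists gives them with their GC content. Of 39 Hox genes, which set position along the body axis, 26 held a treated-only site, against 76.3% of all genes, and together they had 100 sites at 649 motifs, 15.4 per 100 (12.8 to 18.4). The motifs of this list had a mean GC content of 54%, and 5.08% lay in soft-masked repeats. Introns outside repeats at 50 to 55% GC had 16.1 per 100 motifs. The part of GC content in the Hox rate was not tested. Over whole clusters from the first to the last gene, Hoxc had 17.4 (38 of 218), Hoxd 17.1 (36 of 210), Hoxa 12.9 (35 of 272) and Hoxb 10.6 (43 of 407). Hoxc5, whose model overlaps other Hoxc genes, had 21 sites at 97 motifs, Hoxd3 19 at 90 and Hoxa3 13 at 113, whereas Hoxb3 had 2 at 54 and Hoxc13 and Hoxa13 had none. The treated list held CCGG motifs of these clusters at shares from 54.1% in Hoxd to 63.9% in Hoxc, with a median of 13 or 14 reads. Among the CCGG neighbours of all CCAGG motifs described above, the treated list held 67.4%, with a median of 23 reads. The Hox clusters were below both values, whereas their list had a raised CCAGG rate. Those neighbours are not all CCGG motifs of the genome, and the part of GC content in this contrast was not tested.

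Genes of naive pluripotency, which keep ESCs undifferentiated, had 116 treated-only sites at 959 motifs, 12.1 per 100 (10.2 to 14.3), and 18 of 21 genes held at least 1. Esrrb, an orphan nuclear receptor gene, held 63 of these sites at 376 motifs (16.8, 13.3 to 20.9), with reads up to 37. Pou5f1, the gene of Oct4, held 4 at 14 motifs with up to 17 reads, Klf4 3 at 16 with up to 13, Sall4 4 at 47 with up to 23 and Trim28 8 at 79 with up to 23. Sox2 and Nanog each held 1 site, with 11 reads at 3 motifs and 12 reads at 14 motifs. Lefty1, Klf2 and Tdgf1 had none, at 9, 6 and 12 motifs. Esrrb, the gene with the most motifs, thus held 63 of the 116 sites, and the other 20 genes had 9.09 per 100 motifs (7.02 to 11.7), an interval that includes the 9.51 of all genes. With a minimum of 20 reads the list had 1.98 per 100 motifs, below the 2.53 of all protein-coding gene bodies. Its place above all genes therefore rests on Esrrb and on sites of 10 to 19 reads.

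Retinoic acid receptors and response genes had 249 sites at 2122 motifs, 11.7 per 100 (10.4 to 13.2), in 17 of 18 genes. Without Rxra the list had 10.8 (9.46 to 12.3), and without Rxra and Stra6 10.1 (8.70 to 11.7). Both intervals include the 9.51 of all genes. Among the receptors, Rxra held 50 at 278 motifs (18), Rara 27 at 152 (17.8), Rarg 11 at 72 (15.3) and Rxrg 18 at 87 (20.7), while Rarb held 36 at 577 (6.24, 4.54 to 8.52). Rarb had a mean GC content of 45.3%, against 57.6% in Rara. Stra6, the gene of a retinol transporter, held 42 sites (14.5 per 100 motifs), Cyp26b1, which breaks retinoic acid down, 9 at 79, Dhrs3 1 at 78 and Cyp26a1 none at 4.

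Writers and erasers of DNA methylation had 164 sites at 1447 motifs, 11.3 per 100 (9.80 to 13.1), and all 10 genes held at least 1. Without Dnmt3a the list had 10.9 (9.26 to 12.9), and without Dnmt3a and Tet3 9.86 (8.05 to 12). Both intervals include the 9.51 of all genes. The de novo genes Dnmt3a, Dnmt3b and Dnmt3l held 40 at 314, 11 at 88 and 11 at 53 motifs, and the maintenance genes Dnmt1 and Uhrf1 22 at 182 and 10 at 63. Of the oxidases that remove methylation, Tet3 held 39 at 271 (14.4) and Tet1 and Tet2 17 at 273 (6.23) and 6 at 119 (5.04). The LSD1 complex list had 150 at 1580, 9.49 per 100 (8.14 to 11), close to all genes. With a minimum of 20 reads it had 2.91, above the 2.53 of all genes, and with 5 kb added on each side 10.4, above 9.35. Without Mta1 and Mta3, the genes with the most sites, it had 7.93 (6.54 to 9.59), so its place relative to all genes depends on the setting. In it Kdm1a, the gene of LSD1 itself, held 4 at 87 (4.60), Mta1 28 at 124 (22.6) and Mta3 26 at 246 (10.6).

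Among lineage genes, the endoderm list had 271 sites at 2456 motifs, 11 per 100 (9.86 to 12.3), led by the basement membrane collagen genes Col4a2 (67 of 411) and Col4a1 (43 of 325), with Gata4 at 19 of 167 and Sox17 at 0 of 10. Without both collagen genes the list had 9.36 (8.07 to 10.8), within counting error of all genes. The neural list had 316 at 8466, 3.73 per 100 (3.35 to 4.16). Most of its motifs are in long synaptic genes of low GC content, Cntnap2 with 60 sites at 2417 and Nrxn3 with 44 at 1668 among them, while Pax6 held 11 at 60 (18.3) and Ncam1 42 at 478 (8.79). Imprinted genes had 357 at 3174, 11.2 per 100 (10.2 to 12.4), of which Trappc9 held 120 at 953 motifs and Kcnq1 109 at 817. The other 17 genes had 9.12 (7.72 to 10.7), within counting error of all genes. Among them Igf2r held 25 and Grb10 23, whereas Snrpn held 3 at 168 and Ube3a none at 45.

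The remaining lists were at or below all genes. Clustered protocadherins had 9.38 per 100 motifs (7.58 to 11.5), numbered zinc finger genes 7.89 (7.53 to 8.27), ribosomal proteins 3.78 (2.41 to 5.90), olfactory receptors 3.77 (3.37 to 4.22) and vomeronasal receptors 2.2 (1.84 to 2.63). Ribosomal protein genes stood apart from the others in that their mean GC content of 50.2% was above that of most lists. With 5 kb added on each side their rate was 7.59. The receptor lists had 43.4% and 42.2% GC and the neural list 43.5%. The part of reads that map to several places in the receptor lists was not tested.

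**Figure D5:**
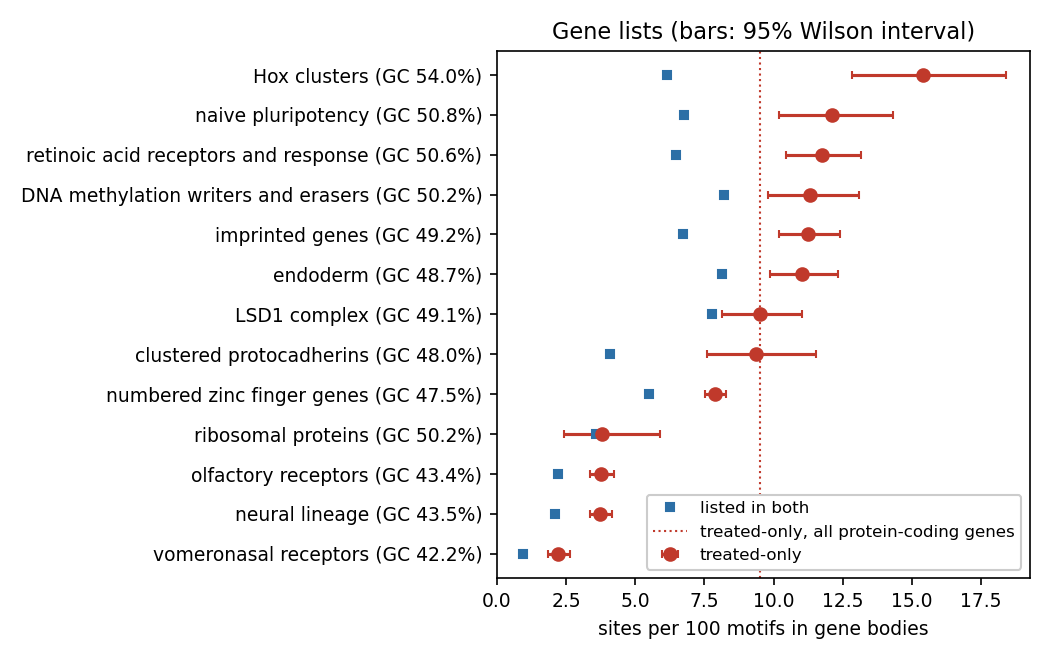
Treated-only sites (red circles, with 95% Wilson intervals) and shared sites (blue squares) per 100 CCAGG motifs in the gene bodies of each list (horizontal axis), with the mean GC content around the motifs beside each name. The dotted line is the treated-only rate of all protein-coding gene bodies, 9.51, and the lists run from 2.2 in vomeronasal receptors to 15.4 in Hox genes.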

How the data were processed

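Per the labels and the study's methods, the authors trimmed single-end MethylRAD reads, kept reads that hold an FspEI site, aligned these to GRCm38 (Bowtie2 2.3.3 in the submitters' processing notes), discarded reads with several positions, and deposited the count (without normalization) and its RPM (scaled by library size) at sites with at least 5 reads. The deposited RPM values correspond to 50959931 mapped reads (undifferentiated), 73712891 (untreated) and 67235311 (treated), and the listed sites held 40176194, 45216192 and 42020661 reads. From these files, CCAGG sites were selected by reads and position, placed on every CCAGG motif of the GRCm38 autosomes and annotated with GENCODE M21 basic genes. Location classes were given in the order promoter (1 kb upstream and downstream of a start site), UTRs, exon, intron, the 300 bp after a gene, distal intergenic. GC content and CpG number were taken over 100 bp on each side. CpG classes came from 500 bp windows overlapping by 5 bp: high had a CpG ratio above 0.75 and GC above 55%, low a ratio below 0.48. Shares have 95% Wilson intervals. No test across samples was made with 1 library per condition. Fragment windows were counted in the autosomes on both strands.

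Named genes were protein-coding, with at least 50 motifs in the gene body: the 10 with the most sites, the 10 with the most and the 10 with the fewest per 100 motifs. Genes of the lists and the 10 deepest sites were described in addition, with examples from the lists chosen after their values were seen. The sites and lists were chosen with earlier results of these data known. A mean over a list counts each motif once. Annotation, distances and intervals were checked on simulated data with known answers. The tools were SciPy 1.17.1, pandas 2.3.3 and numpy 2.4.6 under Python 3.11.15, with matplotlib 3.10.9 for plots. Alternatives were other read minimums, thinned counts, other distances, other promoters, all alignment classes and lists without their leading genes. Sex chromosomes were outside the rule, and CCTGG sites were not used. Some genes of the lists are not reported here by name.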

Additional observations from a re-analysis of the deposited data

Results flagged for a closer look

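Treated-only CCAGG sites with at least 10 reads were also present on chromosomes that the choice left out: 2718 on X, with a median of 12 reads and at most 47, and 139 on Y, with a median of 13 and at most 52. They are listed because they are signal outside the sites described above. They entered no comparison.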

How the results depend on the processing

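The number of treated-only sites was 648331 with at least 5 reads (at positions that read CCAGG in the reference), 72927 with at least 20 and 183593 after random thinning of the treated counts to the mapped reads of the undifferentiated library. In that order (5 reads, 20 reads, thinned), the promoter share was 7.11%, 6.37% and 6.86%, the gene body share 61.4%, 63.9% and 63.4%, and the share with a CpG within 13 bp 21.7%, 23.2% and 22.9%. The share with a listed CCGG site within 100 bp was 19.2%, 29.9% and 25.6%, and the share within 1 kb of another 65.6%, 24.7% and 39.1%. More than 40 bp from a CCGG motif, the promoter share was 6.56%, the CpG share 22.0%, the CCGG share 17.7% and the share within 1 kb of another 45.8%. With all alignment classes the last was 48.6%. Promoters of 3 kb on each side held 17.4% (14.8% of all motifs), and those of 1 kb upstream 3.30% (2.98% of all motifs). The nearest listed CCGG site had a median of 27 reads for sites with at least 20 reads. For the same quantities, 16 other values stayed within their intervals or within 1.5 times the count, among them the number of gene lists above all genes, 6 with at least 20 reads and 7 with 5 kb added on each side, but with at least 20 reads the naive pluripotency list was below all genes and the LSD1 complex list above them. At that minimum every list rate fell, to between 0.574 and 4.01 per 100 motifs, against 2.53 for all genes. Lists without the 1 or 2 genes with the most sites, an alternative chosen after seeing the data, gave 9.09 for naive pluripotency, 9.36 for endoderm, 9.12 for imprinted, 10.1 for retinoic acid (8.70 to 11.7), 9.86 for DNA methylation (8.05 to 12) and 7.93 for LSD1 complex genes (6.54 to 9.59), all with intervals that include the 9.51 of all genes. Overlapping Hox genes could not be left out this way. No paired analysis was possible because there was 1 library per condition. Depth limits all values, since a site under 5 reads is not listed.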
